A study of Rattus norvegicus with 5 samples.

Results

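A set of 42 genes on an Affymetrix rat genome array encodes translation factors or proteins that package and splice pre-mRNA, and its transcripts were followed through 3 populations of fetal hypothalamic cells. A gene was a member if the platform annotation gave its probe set a single symbol that began with Eif, Eef, Hnrnp, Srsf or Sf3 (or the older Hnrp and Sfrs), or that was Tra2b or Ybx1. The rule found 42 of the 4736 genes on the array that had a probe set of a single gene, read by 74 probe sets. It reads symbols and no measured value, but it was chosen with earlier results of these data known. A further 9 probe sets were annotated to a fitting gene together with another gene and were left out. Several probe sets were present for 20 members, and each gene was read from its brightest, with the others given where they bear on a result.

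The cells came from the hypothalamus of Wistar rat embryos on day 17 of gestation and were kept as primary cultures, with no allele altered in any population. GFP+ cells had been transfected 24 h after seeding with a plasmid in which a minimal Trh promoter drives green fluorescent protein, and were selected for fluorescence by flow cytometry 48 h later (2 arrays, RNA pooled from 6 experiments). GFP+/- cells were the same kind of transfected culture, passed through the cytometer without selection (2 arrays, 3 experiments pooled). NT cells were not transfected and not selected, and were measured after 3 days in culture (1 array, 3 experiments pooled). Transfection was transient, a promoter fragment and not the Trh gene itself reported the cell type, and every RNA was a pool of cultures.

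Protein synthesis starts when initiation factor eIF2 brings the initiator tRNA to the small ribosomal subunit, while eIF3 and the cap-binding eIF4 proteins place that subunit on the mRNA. Elongation factors then feed in charged tRNAs and move the ribosome, and stress-activated kinases slow the process by phosphorylating eIF2 or eEF2. Before translation, SR proteins bind exons and promote splicing, hnRNPs coat pre-mRNA and often oppose them, and the SF3 complexes of the U2 particle mark the branch point. Neurons use all of these proteins and are known for extensive alternative splicing and for local translation in their processes.

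Each array gave a MAS 5.0 signal per probe set, a linear intensity, and all arrays had been scaled to a trimmed mean near 500. Differences are on the log2 scale from limma, fitted to all 5 arrays and 8740 probe sets, with Benjamini-Hochberg adjustment over all of them and 0.05 as the threshold. According to the study's methods both arrays of a population were hybridized with portions of the same pooled RNA, although the labels speak of biological replicates, so the errors measure array-to-array spread only. The single NT array was taken to have the same spread. The 3' to 5' signal ratio of the Gapdh control was 14.6 and 17.6 on the GFP+ arrays, 12.7 and 14.2 on the GFP+/- arrays and 5.45 on the NT array. Summed over 13 of 17 listed neuronal markers, signals were 40720 to 45473 in GFP+ cells, 30698 to 38652 in GFP+/- cells and 61738 in NT cells, with Gad2, Snap25, Syn1, Syn2 and Syt1 dim (mean signal under 200). Over 14 of 15 fibroblast and matrix markers they were 32003 to 36669 in GFP+ cells, 59340 to 64409 in GFP+/- cells and 31653 in NT cells, with Dcn and Lum dim. Endothelial and mural markers (7 of 9, 5 dim) summed to 2151 to 3933 in GFP+ cells, 9178 to 11420 in GFP+/- cells and 1765 in NT cells. Erythroid markers (5 of 7, 1 dim) summed to 7061 to 7240 in GFP+ cells, 10641 to 15326 in GFP+/- cells and 1028 in NT cells. Sums over astrocyte markers (9 of 11, 3 dim) were 17805 to 24521 in GFP+ cells, 20099 to 22213 in GFP+/- cells and 21616 in NT cells, and over oligodendrocyte lineage markers (7 of 9, 4 dim) 1670.1 to 1685 in GFP+ cells, 1570.1 to 1646 in GFP+/- cells and 1417 in NT cells. Microglia and macrophage markers (7 of 9, all dim) summed to 608 to 749.6 in GFP+ cells, 299 to 396 in GFP+/- cells and 602 in NT cells. Trh itself was dim, with signals of 115 and 141 in GFP+ cells, 109 and 106 in GFP+/- cells and 96.6 in NT cells. In RNA from mixed cells, fewer cells of a type and less RNA per cell cannot be told apart.

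Most of the factors had bright transcripts by their mean over the arrays. A mean signal of at least 200 over the 5 arrays was reached by 37 of the 42 members (88.1%) and by 38.5% of all probe sets. Each member was read from its brightest probe set by this same mean, which raises its share. The share of all probe sets had no such pick, so the comparison is not like for like. The 5 dim ones were Eef1a2, Eif2ak1, Eif2b5, Hnrnpm and Srsf10. Of the others, Sf3b1, Ybx1 and Eef2k were under 200 in NT cells and Hnrnpd in GFP+ cells. The median signal over the members was 1386 and 1419 on the GFP+ arrays, 1302 and 1114 on the GFP+/- arrays and 1363 on the NT array. On the map of signals relative to each gene's mean, most rows were pale, and the strong colours stood mainly in the NT column.

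**Figure D1:**
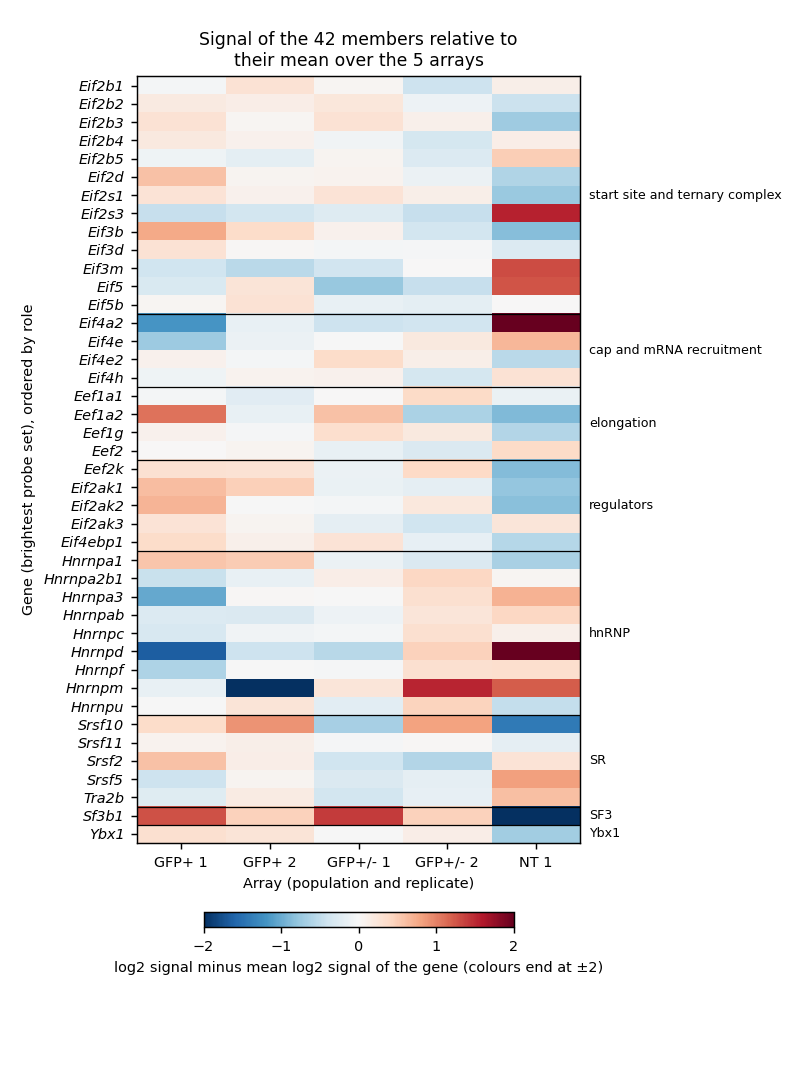
Heat map of the 42 members (rows, grouped by role) on the 5 arrays (columns), coloured by log2 signal minus the gene's mean log2 signal over the arrays, with colours ending at ±2. Eif2s3, Eif3m, Eif4a2, Eif5 and Hnrnpd are red and Sf3b1 is dark blue in the NT column, and the dim Hnrnpm varies within the populations.

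GFP+ cells were first set against GFP+/- cells, the unselected mixture from other experiments of the same kind. No member passed the adjusted threshold in either direction (background 0% of all probe sets higher and 0% lower with limma). At an unadjusted p under 0.05, 3 members were higher in GFP+ cells (Eif3b, Hnrnpa1 and Srsf2, against 9.15% of all probe sets) and 1 was lower (Hnrnpa2b1, against 4.75%). Both GFP+ arrays lay above both GFP+/- arrays for 12 members (28.6%, against 30.4% of all probe sets) and below them for 9 (21.4%, against 15.4%). Among the 3365 probe sets with a mean signal of at least 200, 1052 lay above and 720 below in this way. By the ratio of averaged signals, 0 members were more than 2-fold higher (background 8.89%) and 1, the dim Hnrnpm, was more than 2-fold lower (background 4.18%). Most members are bright, and among those 3365 bright probe sets only 100 were more than 2-fold higher and 73 lower. With the test run among bright probe sets alone, still 0 of 37 members passed, where 2.29% of those probe sets were higher and 1.87% lower. The median log2 difference was 0.094 over the members and 0.13 over all probe sets. Among the 37 bright members, 29 differed by less than 0.5, and the SE of a difference ran from 0.17 to 0.51.

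Against the untransfected NT cells, both transfected populations differed in a few members. In GFP+ cells 3 members were higher past the threshold, namely Eif3b, Hnrnpa1 and Sf3b1 (7.14% of the members, against 4.38% of all probe sets), and 4 were lower, namely Eif2s3, Eif3m, Eif4a2 and Hnrnpd (9.52%, against 4.06%). In GFP+/- cells 1 was higher, Sf3b1 (2.38%, against 4.2%), and 4 were lower, Eif2s3, Eif3m, Eif4a2 and Eif5 (9.52%, against 5.03%). Most members are bright, and bright probe sets passed more often than all probe sets did. Among the 3365 probe sets with a mean signal of at least 200, 297 passed as higher and 277 as lower in GFP+ cells. In GFP+/- cells 299 of them passed as higher and 335 as lower. That limit on the mean includes the NT array itself. Both comparisons use the same NT array, so they are not independent. By the ratio of averages, 8 members were more than 2-fold higher in GFP+ than in NT cells (background 14.5%) and 8 lower (12.3%), and for GFP+/- cells 3 were higher (12.1%) and 6 lower (15.2%). The members' median log2 difference was 0.053 for GFP+ over NT cells (all probe sets 0.056) and 0.11 for GFP+/- over NT cells (all probe sets -0.094).

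The calls against NT cells changed with the arrays and the prior used. For GFP+ against NT cells the 7 calls became 0 when any single GFP+ or GFP+/- array was left out, and also with a prior variance that ignored intensity. Leaving out a GFP+/- array keeps the differences of GFP+ over NT cells as they were and alters the estimate of spread alone. For GFP+/- against NT cells the 5 calls became 0 without either GFP+/- array or with that prior, and 4 (all but Eif3m) without either GFP+ array. The NT array lay above all 4 others for 14 of the 42 members (33.3%, background 28.9%) and below all 4 for 19 (45.2%, background 27.3%). Transfection and the 3' to 5' ratios of the Gapdh and beta-actin controls (though not of hexokinase) separate this array from the others. Passage through the cytometer is described for the other 4 arrays and not stated for the NT cells, so it may separate them too. The parts of these differences cannot be told apart.

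**Figure D2:**
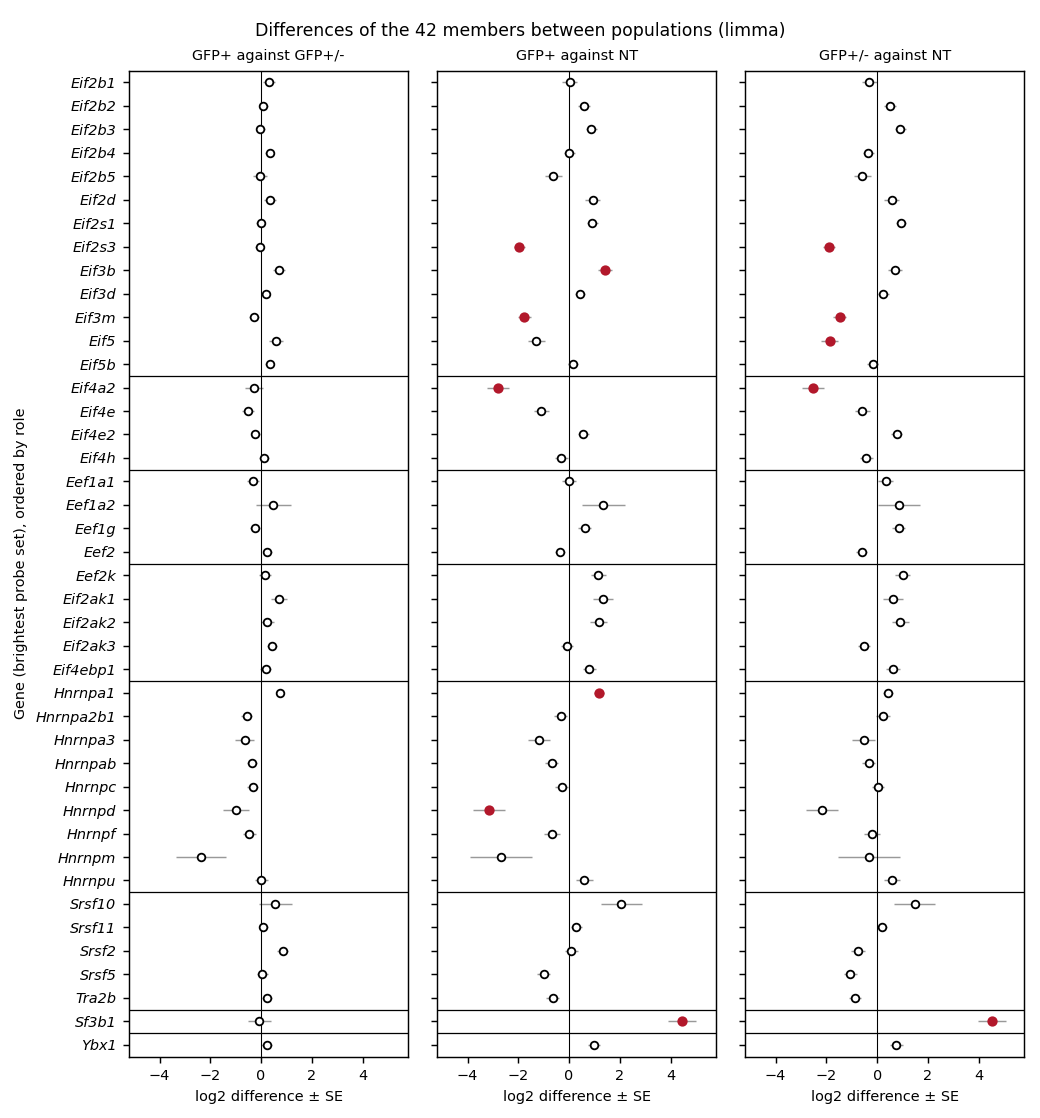
Log2 difference ± SE from limma (horizontal) for each of the 42 members (rows, by role) in the 3 comparisons named above the panels, with filled red points past the adjusted threshold and open points not. No point is filled in the left panel, 7 are in the middle and 5 on the right.

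The start-site sequences of the 8 members that passed in either NT comparison are shown because many mRNAs of the translation machinery begin with a C and a run of pyrimidines, the 5′ terminal oligopyrimidine tract through which mTOR controls their translation. Each window holds 15 bases before and 15 bases from the annotated RefSeq start (build GRCr8), on the strand of the gene, and capitals mark a C followed by 5 or more bases that are each C or T, wherever it lies in the window. Only the gene's strand was searched, and no other motif.
Eif2s3, chrX:62933685-62933714, minus strand: ggcggcagccgagcattttCCTTTTCTCTC
Eif3m, chr3:111897179-111897208, minus strand: cgtaacaccgtgtggtaccgCTCCTTTTCC
Eif4a2, chr11:91275309-91275338, minus strand: gtCTTTTCagtcgggcgctgagtgggtttt
Hnrnpa1, chr7:136254103-136254132, plus strand: ctgCTCTTTgacgctggcgaggaagcatcg
Eif5, chr6:136410318-136410347, plus strand: cccggggccgagggtagcttgagcgcggcg
Eif3b, chr12:19334754-19334783, minus strand: cggaagcagggcggccgagccgggtgagga
Hnrnpd, chr14:9919742-9919771, plus strand: cattttaggtggtccgcggcggcgccatta
Sf3b1, chr9:64026705-64026734, minus strand: ttaggtggcagttggactacgtgccacggt
The first 4 hold such a run and the last 4 do not. The run lies before the annotated start in Eif4a2 and Hnrnpa1 and begins after it in Eif2s3 and Eif3m. None of the 4 marked runs thus begins at the annotated start as a terminal tract would. In Eif2s3, however, all 15 bases from the annotated start are C or T, and the mark begins later because the first 4 are T. Among all members a run was found for 9 of 41 genes with a window (9 of 45 windows, 20%), near the 21.2% of all 33469 windows in the table. A match describes these letters and is not evidence of a regulated mRNA.

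The eIF2 and eIF3 complexes each had subunits on opposite sides of the NT array. Eif2s3, the gamma subunit of eIF2 that binds the initiator tRNA, had signals of 333 and 352 in GFP+ cells, 383 and 330.5 in GFP+/- cells and 1329.6 in NT cells. The 4 arrays of transfected cells lay close together and far below the NT array. The log2 difference was -1.96 (SE 0.23, adjusted p = 0.0145) for GFP+ and -1.90 (SE 0.23, adjusted p = 0.0141) for GFP+/- over NT cells. Eif2s1, the alpha subunit on which the eIF2 kinases act, had 3724 and 3289 in GFP+ cells, 3719 and 3347 in GFP+/- cells and 1850.4 in NT cells. Here the NT array was the low one, with log2 differences of 0.92 (SE 0.21, adjusted p = 0.0553) for GFP+ and 0.93 (SE 0.21, adjusted p = 0.0515) for GFP+/- cells, neither past the threshold.

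Eif3m, a subunit of the eIF3 scaffold, had 378 and 342 in GFP+ cells, 382 and 502 in GFP+/- cells and 1223 in NT cells. Its log2 difference was -1.76 (SE 0.26, adjusted p = 0.0204) for GFP+ and -1.48 (SE 0.26, adjusted p = 0.0278) for GFP+/- over NT cells. Eif3b, the subunit around which much of eIF3 is assembled, went the other way, with 4342 and 3302 in GFP+ cells, 2731 and 2002 in GFP+/- cells and 1429 in NT cells. The 3 populations did not overlap, GFP+ cells being high and NT cells low. Relative to NT cells, Eif3b was higher in GFP+ cells by 1.41 on the log2 scale (SE 0.29, adjusted p = 0.0438), whereas for GFP+ over GFP+/- cells the difference was 0.70 (SE 0.23, adjusted p = 0.288) and for GFP+/- over NT cells 0.71 (SE 0.29, adjusted p = 0.201). The call over NT cells was lost with arrays scaled to equal medians (adjusted p = 0.0505) and with the mean of its probe sets (adjusted p = 0.0736). A second Eif3b probe set, from the same transcript sequence and so not independent, had 3708 and 2827 in GFP+ cells, 2633 and 1437 in GFP+/- cells and 1373 in NT cells. Eif3d, also of eIF3, had 3587 and 2981 in GFP+ cells, 2844 and 2888 in GFP+/- cells and 2429 in NT cells.

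Eif5, which triggers GTP hydrolysis by eIF2 at the start codon, had 291 and 432 in GFP+ cells, 214 and 261 in GFP+/- cells and 865 in NT cells. Both populations of transfected cells were below the NT array, and GFP+ cells lay above GFP+/- cells. The difference passed for GFP+/- over NT cells (log2 -1.87, SE 0.32, adjusted p = 0.0276) and not for GFP+ over NT cells (-1.29, SE 0.32, adjusted p = 0.0698) or for GFP+ over GFP+/- cells (0.59, SE 0.26, adjusted p = 0.393). A dim second probe set of Eif5 had 147 and 108 in GFP+ cells, 46.8 and 40.0 in GFP+/- cells and 59.3 in NT cells, so that GFP+ cells were above the NT array (1.08, SE 0.46, adjusted p = 0.225). With the mean of its probe sets, Eif5 no longer passed for GFP+/- over NT cells (-1.16, adjusted p = 0.0707). Of the eIF2B subunits, which recharge eIF2 with GTP, Eif2b3 had 2078 and 1735 in GFP+ cells, 2066 and 1812 in GFP+/- cells and 1035 in NT cells, with adjusted p = 0.0698 and 0.0619 for the 2 transfected populations over NT cells. A dimmer probe set of the gene, with 328 and 404 in GFP+ cells, 292 and 271 in GFP+/- cells and 434 in NT cells, had the NT array as the highest. Eif2b1, Eif2b2, Eif2b4 and the dim Eif2b5 differed by at most 0.62 on the log2 scale in each of the 3 comparisons. Eif2d, an alternative carrier of the initiator tRNA, had 549.8 and 382 in GFP+ cells, 383 and 338 in GFP+/- cells and 242 in NT cells (GFP+ over NT 0.92, SE 0.30, adjusted p = 0.128). Eif5b, which joins the ribosomal subunits, had 2043 and 2437 in GFP+ cells, 1793 and 1732 in GFP+/- cells and 1997 in NT cells.

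**Figure D3:**
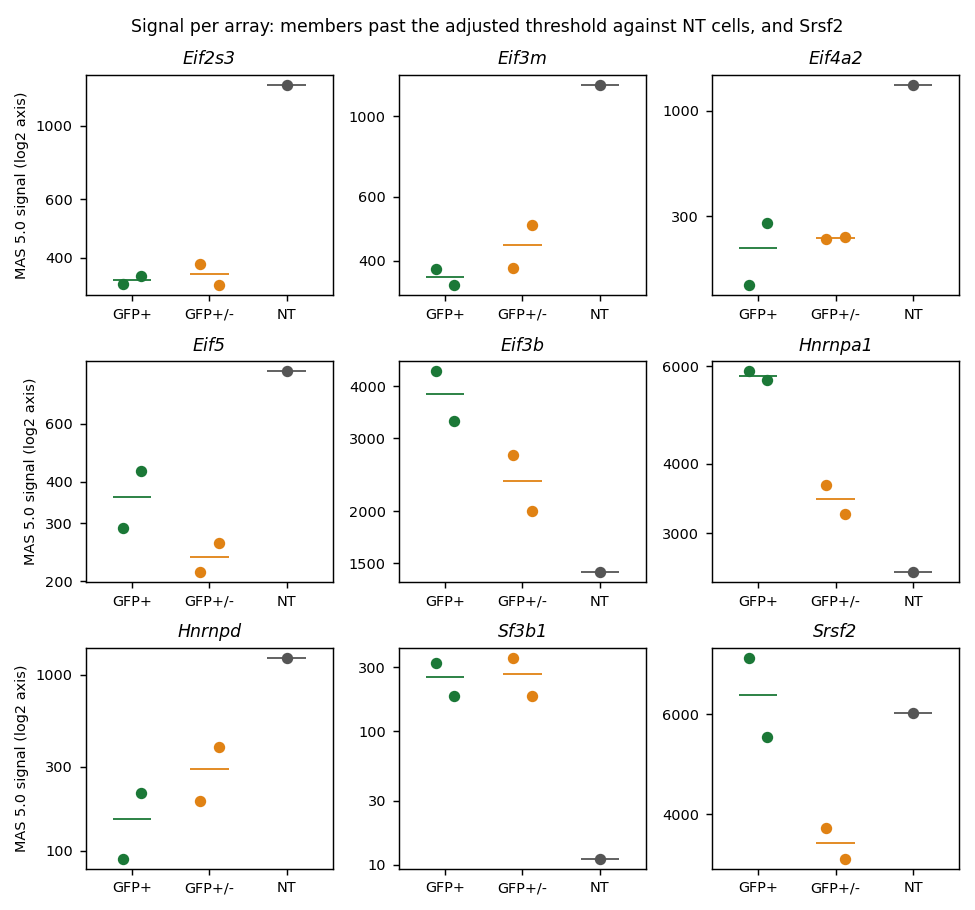
MAS 5.0 signal (log2 axis, scaled per panel) on each array of GFP+ (2), GFP+/- (2) and NT (1) cells for the 8 members past the adjusted threshold against NT cells and for Srsf2, with lines at the population means. Eif2s3, Eif3m, Eif4a2, Eif5 and Hnrnpd are highest on the NT array, Sf3b1, Eif3b and Hnrnpa1 lowest, and Srsf2 is lowest on the GFP+/- arrays.

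Among the factors that recruit mRNA, Eif4a2 stood apart. Eif4a2, a DEAD-box RNA helicase that unwinds the 5′ leader of mRNAs, had 137 and 278 in GFP+ cells, 231 and 237 in GFP+/- cells and 1349 in NT cells. The NT array was far above the others, whereas GFP+ and GFP+/- cells overlapped. Log2 differences over NT cells were -2.79 (SE 0.44, adjusted p = 0.0235) in GFP+ and -2.53 (SE 0.44, adjusted p = 0.0278) in GFP+/- cells. Its other probe set, made from the same coding sequence, had 217 and 242 in GFP+ cells, 125 and 26.8 in GFP+/- cells and 968 in NT cells. That one passed for GFP+/- over NT cells (-4.06, SE 0.86, adjusted p = 0.0439) and not for GFP+ over NT cells (-2.08, SE 0.86, adjusted p = 0.215). Between GFP+ and GFP+/- cells the 2 probe sets gave -0.26 (SE 0.36) and 1.99 (SE 0.70), and neither passed.

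Eif4e, the cap-binding protein, had 522 and 798 in GFP+ cells, 857 and 988 in GFP+/- cells and 1378 in NT cells. The 3 populations did not overlap, with GFP+ low and NT high, but no difference passed (GFP+ over GFP+/- -0.51, SE 0.25, adjusted p = 0.43, and GFP+ over NT -1.09, SE 0.30, adjusted p = 0.0875). Eif4e2, a related cap-binding protein that represses translation, had 1014 and 935 in GFP+ cells, 1238 and 1039 in GFP+/- cells and 662 in NT cells, where the NT array was low. Its log2 difference was -0.22 (SE 0.17, adjusted p = 0.633) for GFP+ over GFP+/- and 0.78 (SE 0.21, adjusted p = 0.0846) for GFP+/- over NT cells. Eif4h, a cofactor of the eIF4A helicases, had 1660.1 and 1843 in GFP+ cells, 1876 and 1376 in GFP+/- cells and 2154 in NT cells, so that GFP+ and GFP+/- cells overlapped. Its second brightest probe set had 1078 and 977 in GFP+ cells, 1248 and 1040 in GFP+/- cells and 913 in NT cells. The NT array was thus highest on the first and lowest on the second.

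No elongation factor passed the threshold in any of the 3 comparisons. Eef1a1, which carries aminoacyl-tRNA to the ribosome, had 13847 and 12036 in GFP+ cells, 14293 and 18464 in GFP+/- cells and 12899.7 in NT cells. GFP+ cells lay just below GFP+/- cells (log2 difference -0.33, SE 0.23, adjusted p = 0.591), and the NT array fell between the 2 GFP+ arrays. Eef1a2, the form that replaces Eef1a1 in mature neurons and muscle, was dim on every array, with 58.6 and 24.9 in GFP+ cells, 41.6 and 17.9 in GFP+/- cells and 14.9 in NT cells. Eef1g, a subunit of the complex that recharges eEF1A, had 13099.7 and 12053 in GFP+ cells, 15499 and 14029 in GFP+/- cells and 8222 in NT cells. It was lower in NT than on every other array, with a log2 difference of 0.84 (SE 0.24, adjusted p = 0.0965) for GFP+/- over NT and of -0.23 (SE 0.20, adjusted p = 0.661) for GFP+ over GFP+/- cells. Eef2, which translocates the ribosome, had 5733 and 5930.2 in GFP+ cells, 5133 and 4659 in GFP+/- cells and 7461 in NT cells (GFP+ over GFP+/- 0.25, SE 0.17, adjusted p = 0.579). Its second brightest probe set had 1053 and 1158 in GFP+ cells, 970 and 1010 in GFP+/- cells and 883 in NT cells. There the NT array was the lowest and not the highest.

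All 5 regulators of translation had a positive log2 difference for GFP+ over GFP+/- cells (median 0.25), and none passed the threshold. Of all probe sets, 5287 of 8740 were positive in this comparison, with a median of 0.13. With the arrays scaled to equal medians, with all probe sets of each gene averaged, or without GFP+ array 1 or either GFP+/- array, 4 of 5 were positive. Eif2ak3, the endoplasmic reticulum kinase PERK that phosphorylates eIF2 under stress, had 488 and 420.0 in GFP+ cells, 357 and 309 in GFP+/- cells and 481 in NT cells (GFP+ over GFP+/- 0.45, SE 0.20, adjusted p = 0.389). Its GFP+/- arrays were the low ones. Eif2ak1, the haem-regulated eIF2 kinase, was dim, with 127 and 114 in GFP+ cells, 75.1 and 72.4 in GFP+/- cells and 48.1 in NT cells (GFP+ over GFP+/- 0.70, SE 0.33, adjusted p = 0.41, and GFP+ over NT 1.32, SE 0.40, adjusted p = 0.107).

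Eif2ak2, the kinase PKR that double-stranded RNA activates, had 1019.8 and 629.9 in GFP+ cells, 617 and 734 in GFP+/- cells and 356 in NT cells. The GFP+ arrays differed from each other and enclosed a GFP+/- array, while the NT array was lowest (GFP+ over NT 1.17, SE 0.33, adjusted p = 0.0939, and GFP+/- over NT 0.92, SE 0.33, adjusted p = 0.162). Eef2k, the kinase that inhibits eEF2, had 392 and 388 in GFP+ cells, 295 and 418 in GFP+/- cells and 175 in NT cells, with adjusted p = 0.0738 for GFP+ (log2 difference 1.16, SE 0.29) and 0.0993 for GFP+/- (1.00, SE 0.29) over NT cells. Eif4ebp1, which sequesters eIF4E until mTOR phosphorylates it, had 1633 and 1362 in GFP+ cells, 1535 and 1134 in GFP+/- cells and 856 in NT cells. Its differences over NT cells did not pass, at 0.80 (SE 0.26, adjusted p = 0.13) for GFP+ and 0.62 (SE 0.26, adjusted p = 0.218) for GFP+/- cells. A dimmer Eif4ebp1 probe set had 584 and 473 in GFP+ cells, 739 and 431 in GFP+/- cells and 173 in NT cells. It passed for GFP+/- over NT cells (1.71, SE 0.37, adjusted p = 0.0471) and not for GFP+ over NT cells (1.60, SE 0.37, adjusted p = 0.0579). The dim remaining probe set gave 0.56 (SE 0.41, adjusted p = 0.483) for GFP+/- over NT cells.

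Of the 9 hnRNPs, 7 had a negative log2 difference for GFP+ over GFP+/- cells, with a median of -0.46 beside 0.13 over all probe sets. Of all probe sets, 3448 of 8740 were negative. No hnRNP passed the threshold in this comparison. The count was 7 or 8 of 9 with each other scaling, with 16 added to each signal, with all probe sets of each gene averaged and without each array in turn. Scaling to equal medians moved the median of all probe sets to -0.028 and that of the hnRNPs to -0.62. The fibroblast and matrix markers, 13 of 14 with a negative difference, moved the same way between these populations, and their part was not tested. The hnRNP pattern was not limited to this comparison. For GFP+ over NT cells 7 of the 9 were also negative, with a median of -0.66 beside 0.056 over all probe sets. For GFP+/- over NT cells 5 were negative, with a median of -0.20 beside -0.094.

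Hnrnpd, also called AUF1, which binds AU-rich elements and promotes mRNA decay, had 90.2 and 212 in GFP+ cells, 192 and 389 in GFP+/- cells and 1244 in NT cells. GFP+ and GFP+/- cells overlapped, and the arrays within each population lay farther apart than the populations did (-0.98, SE 0.51, adjusted p = 0.477). Hnrnpd was lower in GFP+ cells when set against NT cells (-3.17, SE 0.63, adjusted p = 0.0408), and its difference of -2.19 (SE 0.63, adjusted p = 0.0947) for GFP+/- over NT cells did not pass. Hnrnpa2b1, an RNA-binding protein of splicing and of mRNA transport in neurons, had 6225 and 7601 in GFP+ cells, 9230.0 and 11234 in GFP+/- cells and 8688 in NT cells. Its GFP+ arrays were the lowest of the 5 (GFP+ over GFP+/- -0.57, SE 0.21, adjusted p = 0.335), but another probe set of the gene, with 435 and 499 in GFP+ cells, 320.5 and 418 in GFP+/- cells and 795 in NT cells, had the opposite sign between these populations (0.35, SE 0.21, adjusted p = 0.54).

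Hnrnpa3, of the same A/B family, had 2571 and 5271 in GFP+ cells, 5171 and 6463 in GFP+/- cells and 8382 in NT cells. The wide gap between the GFP+ arrays left -0.65 (SE 0.36, adjusted p = 0.499) over GFP+/- and -1.19 (SE 0.44, adjusted p = 0.172) over NT cells. A second Hnrnpa3 probe set had 1414 and 2365 in GFP+ cells, 2004 and 1659 in GFP+/- cells and 4364 in NT cells. It gave 0.004 (SE 0.28, adjusted p = 0.998) for GFP+ over GFP+/- and -1.26 (SE 0.34, adjusted p = 0.086) for GFP+ over NT cells. Hnrnpab had 7217 and 7131 in GFP+ cells, 8110.2 and 10262 in GFP+/- cells and 11559 in NT cells. Hnrnpc, which coats nascent transcripts at uridine runs, had 2507 and 2981 in GFP+ cells, 3021 and 3909 in GFP+/- cells and 3347 in NT cells. In both, the GFP+ arrays lay below the GFP+/- arrays (-0.35, SE 0.21, adjusted p = 0.525 for Hnrnpab and -0.33, SE 0.20, adjusted p = 0.545 for Hnrnpc). Hnrnpf, a binder of guanine runs, had 1923 and 2930.2 in GFP+ cells, 2896 and 3695 in GFP+/- cells and 3753 in NT cells (GFP+ over GFP+/- -0.46, SE 0.26, adjusted p = 0.502). Hnrnpu, a nuclear scaffold protein, had 4562 and 5527 in GFP+ cells, 3976 and 6257 in GFP+/- cells and 3307 in NT cells, so that GFP+ lay within GFP+/- cells. The dim Hnrnpm had 9.8 and 1.54 in GFP+ cells, 12.8 and 31.3 in GFP+/- cells and 25 in NT cells, and its log2 difference of -2.37 (SE 0.99, adjusted p = 0.369) rests on signals near the bottom of the scale.

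Hnrnpa1, a splicing repressor that competes with SR proteins, gave opposite answers on its probe sets. The brightest had 5872 and 5659.9 in GFP+ cells, 3659 and 3249 in GFP+/- cells and 2556 in NT cells. The next had 2575 and 2804 in GFP+ cells, 3212 and 3811 in GFP+/- cells and 5726 in NT cells, so that the order of the populations was reversed. Over NT cells, GFP+ cells gave a log2 difference of 1.17 on the brightest (SE 0.21, adjusted p = 0.0301) and of -1.09 on the next (SE 0.22, adjusted p = 0.0408). For GFP+ over GFP+/- cells they gave 0.74 (SE 0.17, adjusted p = 0.184) and -0.38 (SE 0.18, adjusted p = 0.413). With the mean of its 4 probe sets, Hnrnpa1 differed by -0.03 for GFP+ over NT cells (adjusted p = 0.95), so the direction of this gene depends on the probe set read.

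Other genes also had probe sets that differed in sign. Of the 13 members with several probe sets of at least 200, all probe sets had the same sign in 4 genes between GFP+ and GFP+/- cells and in 8 genes in each comparison with NT cells. Eif3b, Eif2b1, Eef2 and Srsf2 kept 1 sign between GFP+ and GFP+/- cells. Differences of most of these genes were small, and the probe sets of Eif4a2 and Hnrnpa1 lay farthest apart.

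**Figure D4:**
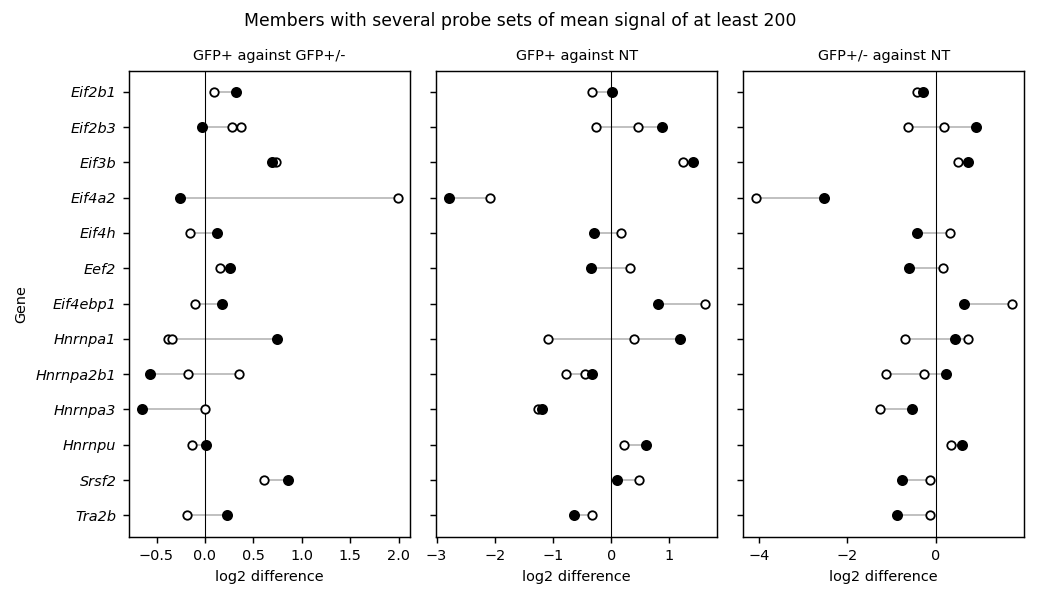
Log2 differences (horizontal) of every probe set of at least 200 for the 13 members that have several, in the 3 comparisons, with filled points for the brightest probe set and open points for the others. The points of Hnrnpa1 lie at 1.17, -1.09 and 0.39 in GFP+ against NT cells and those of Eif4a2 at -0.26 and 1.99 in GFP+ against GFP+/- cells.

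The 5 SR and SR-like proteins all had a positive log2 difference for GFP+ over GFP+/- cells (median 0.23), and none passed. Of these 5, 3 lay above the median of all probe sets (0.13), of which 5287 of 8740 were positive. The count was 3 of 5 with arrays scaled to equal medians, and 4 of 5 without GFP+ array 2 or without GFP+/- array 1. Srsf2, also called SC35, which binds exonic enhancers, had 7532 and 5469.6 in GFP+ cells, 3783 and 3343 in GFP+/- cells and 6029 in NT cells. The GFP+/- arrays were the low ones, and GFP+ cells enclosed the NT array (GFP+ over GFP+/- 0.85, SE 0.22, adjusted p = 0.212). A second Srsf2 probe set had 905 and 1674 in GFP+ cells, 767 and 853 in GFP+/- cells and 885 in NT cells, with the same sign (0.61, SE 0.31, adjusted p = 0.459).

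Tra2b, a sequence-specific splicing activator, had 1560.1 and 2071 in GFP+ cells, 1422 and 1649.9 in GFP+/- cells and 2804 in NT cells. GFP+ and GFP+/- cells overlapped (0.23, SE 0.20, adjusted p = 0.67), and the NT array was highest (GFP+ over NT -0.64, SE 0.25, adjusted p = 0.189, and GFP+/- over NT -0.87, SE 0.25, adjusted p = 0.0937). Other Tra2b probe sets differed. A dim one had 223 and 281 in GFP+ cells, 122 and 129 in GFP+/- cells and 151 in NT cells, with GFP+ cells above all other arrays (GFP+ over GFP+/- 1.00, SE 0.26, adjusted p = 0.211). The second brightest had 1060.3 and 1326 in GFP+ cells, 1283 and 1421 in GFP+/- cells and 1494 in NT cells (-0.19, SE 0.18, adjusted p = 0.703). Srsf5 showed the same order against NT cells, with 1167 and 1611 in GFP+ cells, 1275 and 1366 in GFP+/- cells and 2757 in NT cells (-1.01, SE 0.25, adjusted p = 0.0706 for GFP+, and -1.06, SE 0.25, adjusted p = 0.0591 for GFP+/- cells). Srsf11 had 6478 and 6672 in GFP+ cells, 6042 and 6264 in GFP+/- cells and 5411 in NT cells. Srsf10, known as a splicing repressor when dephosphorylated, was dim, with 24.1 and 34.9 in GFP+ cells, 11.8 and 32.6 in GFP+/- cells and 7.02 in NT cells (GFP+ over NT 2.05, SE 0.80, adjusted p = 0.194).

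Sf3b1, a core subunit of the SF3b complex that holds the U2 particle on the branch point, had 321 and 183 in GFP+ cells, 351 and 184 in GFP+/- cells and 11.1 in NT cells. The GFP+ and GFP+/- arrays overlapped, and only the NT array was near the bottom of the scale. Log2 differences over NT cells were 4.45 (SE 0.55, adjusted p = 0.0151) in GFP+ and 4.52 (SE 0.55, adjusted p = 0.0146) in GFP+/- cells. With 16 added to each signal they were 3.26 (adjusted p = 0.0224) and 3.32 (adjusted p = 0.0211), so the size depends on how a low signal is treated. A single probe set on a single NT array carries this result.

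Ybx1, a cold-shock-domain protein that packages mRNA, had 323 and 308 in GFP+ cells, 257 and 284 in GFP+/- cells and 160.0 in NT cells. The populations did not overlap, with GFP+ high and NT low, but no difference passed (GFP+ over GFP+/- 0.22, SE 0.21, adjusted p = 0.684, GFP+ over NT 0.98, SE 0.25, adjusted p = 0.0752, and GFP+/- over NT 0.76, SE 0.25, adjusted p = 0.133).

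Further genes of the same pathways were read from lists. Of 12 measured genes (37 listed) for translation outside the member families, 0 passed for GFP+ over GFP+/- cells. Against NT cells 2 were higher in GFP+ cells (Ppp1r15a, which restores eIF2 after stress, and Tufm, the mitochondrial elongation factor Tu) and 3 were lower (the dim Rps6kb1, Paip1 and Ddx3x), where 4.38% of all probe sets were higher and 4.06% lower. In GFP+/- cells 0 were higher and 3 lower (Mtor, Paip1 and Ddx3x), against 4.2% and 5.03% of all probe sets. For GFP+ over GFP+/- cells, 8 of the 12 differences were positive and 4 negative. The largest was that of Ppp1r15a, with 379 and 463 in GFP+ cells, 119 and 145 in GFP+/- cells and 77.6 in NT cells. Its log2 difference there was 1.68 (SE 0.26, adjusted p = 0.143). By the ratio of averages it was the 1 gene of this list more than 2-fold higher in GFP+ than in GFP+/- cells (background 8.89%). Ddx3x, a helicase of initiation, had 4509 and 4312 in GFP+ cells, 2707 and 2562 in GFP+/- cells and 8954 in NT cells, the NT array being the high one as for Eif4a2. Of 30 measured genes (95 listed) for splicing and RNA binding, 0 passed for GFP+ over GFP+/- cells. Against the same backgrounds, 3 were higher and 1 was lower in GFP+ cells, and 3 were higher and 2 lower in GFP+/- cells, each over NT cells. Ptbp1 and the dim Tardbp were higher in both transfected populations than in NT cells, Clk3 was higher in GFP+ cells and Smn1 in GFP+/- cells, Matr3 was lower in both, and Elavl4, a neuronal RNA-binding protein, was lower in GFP+/- cells. Ptbp1, a repressor of neuronal exons, had 3984 and 5332 in GFP+ cells, 3782 and 3624 in GFP+/- cells and 1427 in NT cells. The neuronal markers, whose summed signal was highest on the NT array, moved in the same comparisons, and their part in these results was not tested.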

How the data were processed

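The authors had hybridized biotin-labelled RNA of 3 cell populations to 5 rat arrays (Affymetrix) and deposited MAS 5.0 signals, a linear intensity per probe set, scaled to a common trimmed mean (2% trimmed). The 59 control probe sets were dropped from 8799, and of the 8740 kept, 7006 had 1 annotated gene, 308 several and 1426 none. Of the 42 member symbols, 41 were found in RefSeq names of assembly GRCr8, used also for the start windows. Signals under 1 (none in a member) were set to 1 before log2.

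Differences were fitted in R 4.3.3 with limma 3.58.1 (1 mean per population, 5 arrays, intensity trend in the prior), adjusted by Benjamini-Hochberg over 8740 probe sets with 0.05 as the threshold. Ratios of averaged signals over 2-fold followed the study's own measure. Tables and plots used Python 3.11.15, pandas 2.3.3, numpy 2.4.6 and matplotlib 3.10.9. The fit was tested on simulated data.

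The members, gene lists and roles were chosen with earlier results of these data known. Given with per-array signals are members past the threshold, up to 3 per role with the largest difference of GFP+ over GFP+/- cells, the brightest of each role, genes the study names, both Eef1a genes and members with several probe sets, which makes 33. The other 9 members, where given values, were named after their values were seen. Alternatives were quantile and equal-median scaling, 16 added to signals, bright probe sets alone, a prior without trend, GFP+ and GFP+/- arrays alone, a replicate block, all probe sets of each gene averaged, and each array left out. Arrays give no read depth, and their number limits the precision.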

Additional observations from a re-analysis of the deposited data

How the results depend on the processing

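Among bright probe sets, the 7 members past the threshold for GFP+ over NT and the 5 for GFP+/- over NT cells became 17 and 14. That filter uses the mean of all arrays, the NT array included. Sf3b1, Ybx1 and Eef2k passed it only through the transfected cells, so these counts are no support for the calls. The counts were 0 and 0 with a prior without trend and 12 and 10 with the replicate number as a block. With equal medians they were 6 and 7, and with the mean of probe sets 5 and 4. The share of all probe sets past the threshold is not given for these settings. The counts therefore cannot show whether the members moved more than other genes. Without 1 array the counts were 0 for GFP+ over NT and 0 to 4 for GFP+/- over NT cells. For GFP+ over GFP+/- cells the count of members past the threshold was 0 throughout. Members more than 2-fold apart there (1) became 2 with quantile scaling, 2 with equal medians, 0 with 16 added or among bright probe sets, 3 with the mean of probe sets and 1 to 4 without 1 array. The members' median for GFP+ over GFP+/- cells became -0.063 with equal medians and ran from -0.059 to 0.097 without 1 array. For GFP+/- over NT cells it became -0.12 with quantile scaling and ran from 0.0018 to 0.24 without 1 array. Only a part of the member differences was followed singly through every setting. Among these, with the mean of probe sets, the sign turned for Hnrnpa1 (-0.13 over GFP+/- and -0.035 over NT cells), Hnrnpa2b1 (0.11) and Eif4a2 (0.86) in GFP+ over GFP+/- and Srsf5 (0.11) in GFP+ over NT cells. Signs of other members turned too. Positive start-site and ternary-complex factors went from 8 to 9 of 13 in GFP+ over GFP+/- cells. Without 1 array, Eif4a2 in GFP+ over GFP+/- cells ran from -0.77 to 0.25, positive without GFP+ array 1. The causes were not tested. Replicate numbers went with weakly correlated deviations of GFP+ and GFP+/- arrays (correlation 0.063 over all probe sets and 0.192 over those of at least 200), and the samples share only a number. Dim signals limit Hnrnpm, Srsf10, Eef1a2 and the NT value of Sf3b1.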
